A study of Mus musculus with 3 samples.

Results

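The 9 genes Cd79a, Cd79b, Cd22, Cd72, Syk, Btk, Blnk, Lyn and Bank1 encode parts of the machinery through which a B cell reads its antigen receptor. They were listed by name for this shared role, and all 9 were found among the 32285 genes of the count table. Levels were measured by sequencing the RNA of single spleen B cells from 6 mice. Of these mice, 3 were LDHA-sufficient (hashtags marked WT) and 3 LDHA-deficient (hashtags marked KO). LDHA is a subunit of lactate dehydrogenase, which turns pyruvate into lactate at the end of glycolysis. Viable B cells were selected by sorting, in part on GL7, a glycan on activated and germinal centre B cells, and an antibody hashtag of its own marked each mouse before all 6 were pooled in 1 droplet capture. Strain, age, any immunisation, the promoter or Cre driver behind the deletion and the deleted exons are not stated in these sources.

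The antigen receptor of a B cell is a membrane immunoglobulin bound to a pair of signalling chains, CD79A and CD79B. When antigen clusters the receptor, the SRC family kinase LYN phosphorylates the tails of these chains, the kinase SYK docks there, and the adaptor BLNK brings together SYK, the kinase BTK and phospholipase C gamma, from which calcium and NF-kB signals follow. Coreceptors set the threshold: CD22 binds sialic acid and CD72 binds a semaphorin and nucleoprotein ligands, and both recruit the phosphatase SHP-1 once LYN has phosphorylated them, while BANK1 is a scaffold that binds LYN and links the receptor to calcium release. In the germinal centre, where B cells divide, mutate their antibody genes and are selected for affinity, receptor signalling is known to be rewired.

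On the GRCm38 build, all 9 are protein-coding genes in the GENCODE annotation. The signalling chains lie at chr7:24897381-24902197 on the plus strand (Cd79a) and chr11:106311341-106314762 on the minus strand (Cd79b). The coreceptors lie at chr7:30865402-30880342 (Cd22) and chr4:43446462-43454628 (Cd72), both on the minus strand. The kinases lie at chr4:3678115-3813122 on the plus strand (Lyn), chr13:52583173-52648792 on the plus strand (Syk) and chrX:134542336-134583570 on the minus strand (Btk). The adaptors lie at chr19:40928927-40994535 (Blnk) and chr3:136053363-136326066 (Bank1), both on the minus strand.

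The upstream sequences of Cd72, Cd79a and Bank1 are shown because these 3 members were called in the comparison of class-switched with IgM or IgD cells, Cd72 and Cd79a over all such cells and Bank1 with a shared IgA chain left out. Of the 9 members, 7 have an entry in the RefSeq promoter table (build GRCm38.p6), and bases that any GENCODE exon covers were left off. Capitals mark matches, on either strand, to an E box (CAGGTG), the core of the EBF1 motif (CCCNNGGG), a PU box (GAGGAA) or the octamer by its letters ATGCAAAT. The Cd72 stretch is chr4:43454629-43454876 on the minus strand (248 bases), the Cd79a stretch chr7:24897247-24897380 on the plus strand (134 bases) and the Bank1 stretch chr3:136326067-136326316 on the minus strand (250 bases).
Cd72: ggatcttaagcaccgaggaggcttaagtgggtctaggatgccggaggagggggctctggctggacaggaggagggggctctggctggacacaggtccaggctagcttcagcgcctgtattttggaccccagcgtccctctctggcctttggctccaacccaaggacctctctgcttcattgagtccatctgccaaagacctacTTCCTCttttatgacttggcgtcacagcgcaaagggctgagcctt
Cd79a: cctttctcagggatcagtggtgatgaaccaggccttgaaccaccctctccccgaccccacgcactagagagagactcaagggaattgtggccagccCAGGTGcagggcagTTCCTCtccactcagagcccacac
Bank1: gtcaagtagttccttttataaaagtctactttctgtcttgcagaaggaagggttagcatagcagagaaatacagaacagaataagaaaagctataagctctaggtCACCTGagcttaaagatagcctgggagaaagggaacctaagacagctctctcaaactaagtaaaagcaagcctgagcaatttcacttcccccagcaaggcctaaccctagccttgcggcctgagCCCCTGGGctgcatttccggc
The Cd72 stretch held a PU box 47 to 42 bases before the RefSeq start, a motif found in 23.04% of the 32851 promoters of the table in the same window. The Cd79a stretch held an E box 154 to 149 bases and a PU box 140 to 135 bases before the start, found in 9.75% and 13.28% of promoters in that window. The Bank1 stretch held an E box 145 to 140 bases and an EBF1 core 21 to 14 bases before the start, found in 17.22% and 11.82% of promoters. None of the searched motifs overlapped another, no octamer was matched in these 3 stretches, and a match is a description of letters, not of binding.

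After removal of barcodes with no hashtag or with hashtags of several mice, 1849 cells were kept, of which 1785 were of the B lineage and 64 carried markers of other cell types. The labels call the cells of the hashtag and heavy chain libraries HSPCs, while the title of the heavy chain library names pre-GC and GC B cells. The receptor chains were detected in nearly every B-lineage cell, given below, and 1157 of these cells had a heavy chain. Levels are given in CPM (a gene's unique molecules, or UMIs, scaled to 1000000 in the summed cells). The 12 T and NK cell markers summed to between 2.97 and 13.8 CPM in the B-lineage cells of each mouse, and the red cell and platelet markers to between 25.0 and 3264 CPM, with the highest value in 1 LDHA-sufficient mouse and the platelet markers Pf4 and Ppbp at 0. The 10 myeloid markers summed to 205 to 212 CPM in LDHA-sufficient mice and 227 to 232 CPM in LDHA-deficient mice, and the 5 plasmacytoid dendritic cell markers to between 53.4 and 93.4 CPM. At a clustering resolution of 1.2, a cluster of 30 cells led by Vcam1, Slc40a1, Hmox1 and Mertk, genes known from macrophages (median 2522.5 UMIs), remained among the B-lineage cells, and its part in the levels below was not tested. The B-lineage sums held between 1088296 and 2159794 UMIs from between 234 and 360 cells per mouse. The gene targeted, Ldha, was at 236, 246 and 163 CPM in LDHA-sufficient mice 1, 2 and 3 and at 49.4, 49.3 and 68.9 CPM in LDHA-deficient mice 1, 2 and 3, with no overlap (log2 fold change -1.93, SE 0.16, adjusted p = 7.3e-05 by the quasi-likelihood test of edgeR). Most of the 170 GC B-like cells came from 2 mice: their share of B-lineage cells was 19.0%, 22.8% and 5.76% for the LDHA-sufficient mice, against 3.30%, 1.67% and 2.14% for the LDHA-deficient mice. Their weight in the sums was larger than these shares of cells. They held 834762 of 2159794, 944435 of 2116520 and 193653 of 1358563 B-lineage UMIs in LDHA-sufficient mice 1, 2 and 3. In LDHA-deficient mice 1, 2 and 3 they held 108721 of 1295387, 84247 of 1682520 and 83172 of 1088296. Fewer cells of a type and less RNA per cell cannot be told apart in sums over all B-lineage cells.

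The receptor chains were detected in nearly every B-lineage cell. With each cell thinned to 2000 UMIs, which left out 52 shallower cells, Cd79a had a UMI in 97.6% of 1733 B-lineage cells (95% exact interval 96.7 to 98.2, counting error only) and Cd79b in 90.7%. The coreceptors Cd22 and Cd72 had a UMI in 59.0% and 39.1% and the scaffold Bank1 in 77.0% of them. Among 24 cells with markers of other cell types and few B markers, thinned alike, a Cd79a UMI was found in 12 (exact interval 29.1% to 70.9%), and the shares were 16.7% for Cd79b, 8.33% for Cd22, 8.33% for Cd72 and 20.8% for Bank1. The median depth, with 13 shallower cells of this kind counted in, was 3362 UMIs, against 3893 in all B-lineage cells. These 24 cells were picked for having few B lineage markers, none of them a member, which bears on these shares. Of the 64 cells set aside for markers of other cell types (median 4965 UMIs), 50 were deep enough to thin. A Cd79a UMI was found in 30 of them, and the shares were 30.0% for Cd79b, 16.0% for Cd22, 14.0% for Cd72 and 30.0% for Bank1. A single Cd79a UMI was not confined to the cells called B-lineage, and whether the droplets set aside also held a B cell was not tested. Among the cytoplasmic genes, Syk had a UMI in 56.4%, Blnk in 47.8% and Btk in 27.8% of B-lineage cells, against 25.0%, 16.7% and 8.33% of the same 24 cells. Lyn had one in 57.9% of B-lineage cells and in 12 of the 24 others, a difference within counting error, and myeloid cells are known to express Lyn, Syk and Btk too. Without thinning, the shares in B-lineage cells were 99.6% for Cd79a, 97.4% for Cd79b, 80.6% for Cd22, 62.5% for Cd72 and 91.8% for Bank1.

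B cell states were rebuilt by clustering without the 9 genes, the rest of the pathway, Ldha and the immunoglobulin genes, and were named from marker genes. They were follicular B-like (635 cells), marginal zone B-like (220), activated B-like (207, led by Nr4a1, Egr3 and Myc), GC B-like (170), transitional B-like (120), interferon-responding B-like (80), B1-like (63) and plasma cell-like cells (16), while 274 cells stayed unnamed. Levels by state are given in CPM of the summed cells of a mouse, as the mean ± SD over 6 mice with the lowest, median and highest mouse, and no test is given because the states were built from the same cells. In the order of mean levels, neighbouring states overlapped in their ranges over mice for every gene, with 2 exceptions named below. Plasma cell-like cells reached 5 cells in a single mouse and are left out of the order.

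The signalling chains were highest in transitional B-like cells, recent arrivals from the bone marrow. Cd79a stood at 3708 ± 240 CPM there (3409, 3682 and 3984), above the ranges of the interferon-responding cells that came next (3030 ± 207) and of follicular B-like cells (2886 ± 222). It was higher in transitional than in follicular B-like cells of the same mouse in 6 of 6 mice, by 1.28-fold of the means. Cd79b followed, with 2057 ± 205 in transitional (1709, 2128 and 2287) and 1577 ± 131 in follicular B-like cells (1433, 1546 and 1766), also higher in 6 of 6 mice, though the ranges of these states overlapped. At the low end, Cd79a was 2190 ± 136 in activated and 1761 ± 374 in GC B-like cells (1364, 1690 and 2406), and Cd79b 1038 ± 133 and 1097 ± 156. In the mouse with 7 plasma cell-like cells, Cd79a stood at 499 CPM and Cd79b at 298 CPM in those cells.

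The coreceptors followed different orders. Cd22 was highest in follicular B-like cells, at 582 ± 43.5 CPM (523, 590 and 631), and was lower in transitional B-like cells (350 ± 63.5) in 6 of 6 mice with no overlap of the ranges. B1-like cells had 311 ± 81.1 and GC B-like cells 243 ± 52.7 (166, 247 and 301), the lowest mean. Cd72 was highest in transitional B-like cells, at 418 ± 106 (285, 406 and 607), followed by activated B-like cells at 356 ± 48.4 (291, 356 and 434). Its lowest mean was in B1-like cells, at 161 ± 82.4 (57.2, 168 and 254), below the range of marginal zone B-like cells (266, 304 and 367) and lower in 6 of 6 mice. The B1-like values rest on from 6 to 14 cells and from 4 to 31 Cd72 UMIs per mouse. With cells thinned to equal depth, a Cd72 UMI was found in 24.6% of 61 B1-like cells (exact interval 14.5 to 37.3) and in 44.2% of 217 marginal zone B-like cells (37.5 to 51.1). The interval for B1-like cells reached down into that of the 24 cells of other types (8.33%, 1.03 to 27.0), and these intervals leave out the spread between mice.

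Among the kinases, Syk and Lyn were highest in transitional B-like cells and Btk in follicular B-like cells. Syk stood at 586 ± 149 CPM in transitional (327, 589 and 775) and 529 ± 40.9 in follicular B-like cells, and Lyn at 601 ± 39.3 (538, 603 and 646) and 519 ± 25.4. Btk stood at 203 ± 10.5 in follicular B-like cells (190, 202 and 222) and at 125 ± 26.5 in GC B-like cells (107, 114 and 175). The values of Btk in B1-like cells ran from 102 to 338, a spread wider than the differences between the means of the other states. Of the adaptors, Blnk had its highest mean in marginal zone B-like cells, at 410 ± 62.4 (326, 421 and 495), and its lowest in activated B-like cells, at 264 ± 39.4 (lowest mouse 204, median 264), with no overlap. Bank1 was highest in follicular B-like cells, at 1084 ± 34.5 (1034, 1089 and 1132), lower in activated B-like cells, at 629 ± 81.4 (546, 612 and 774), and lowest in GC B-like cells, at 416 ± 110 (278, 401 and 543). The ranges of the activated and GC B-like cells did not touch, the second such pair of neighbours.

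**Figure D1:**
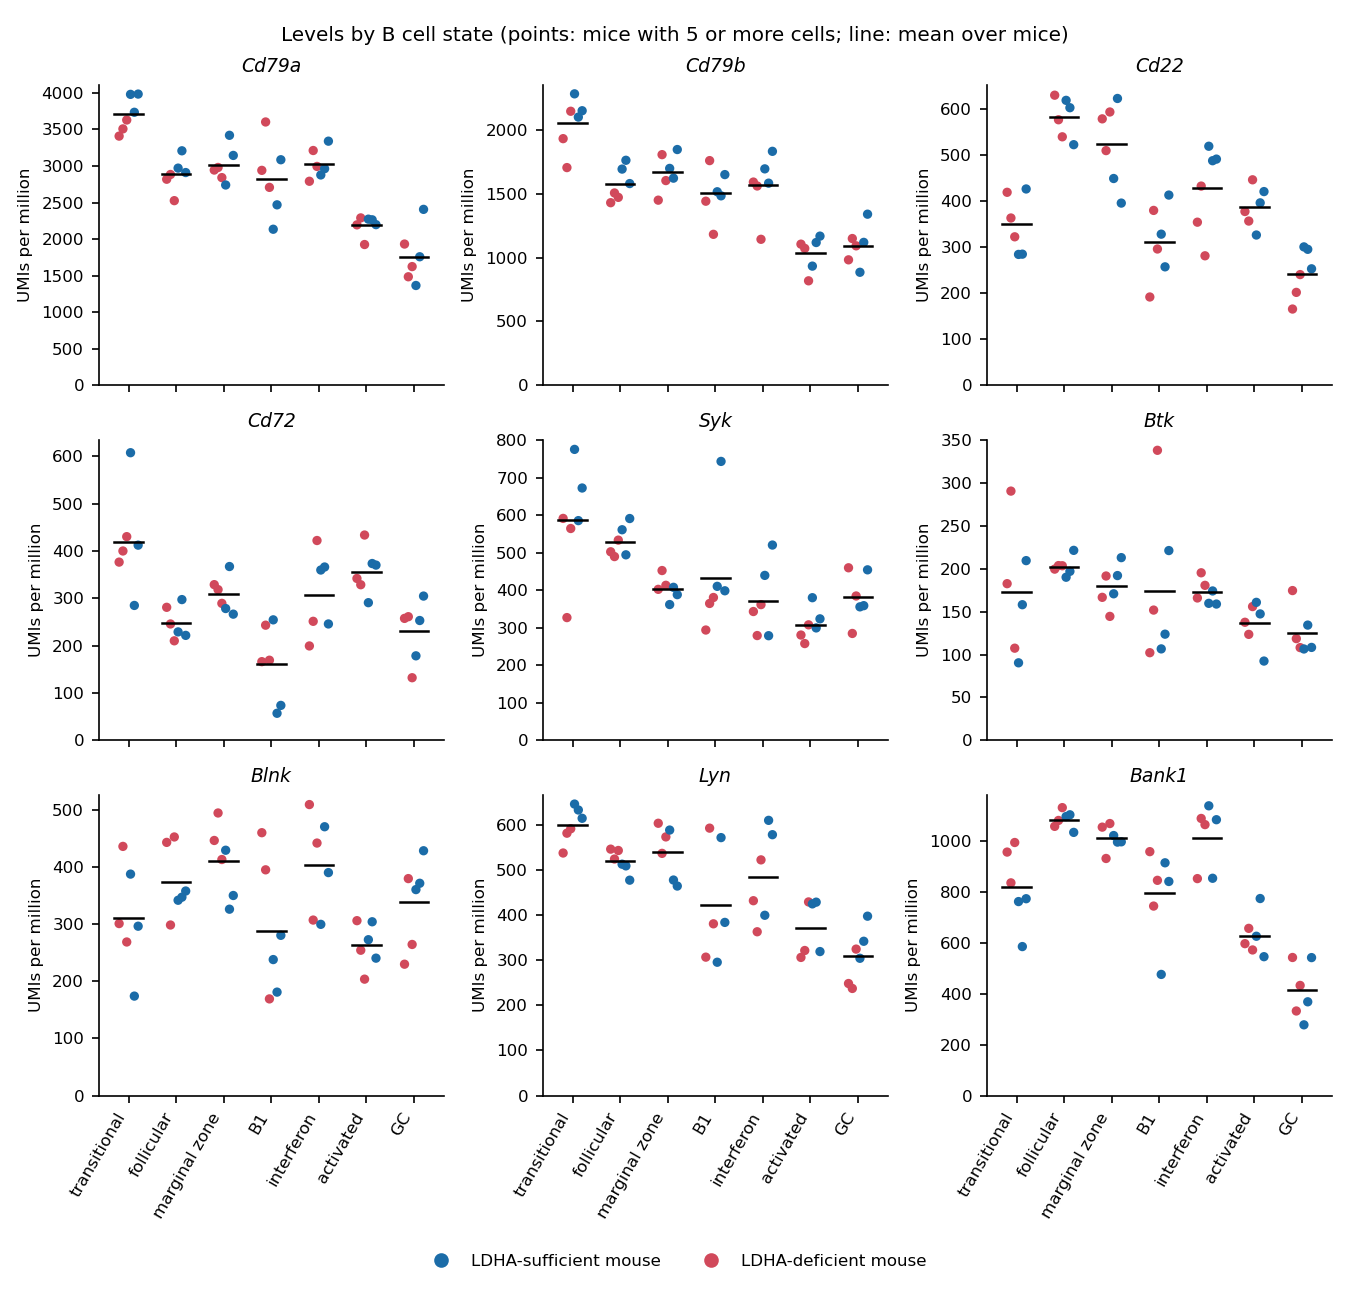
CPM (vertical axes, linear, from 0) of the 9 genes in 7 B cell states, each point 1 mouse with 5 or more cells of that state and each line the mean over mice. Cd79a falls from 3708 in transitional to 1761 in GC B-like cells, Bank1 from 1084 in follicular to 416 in GC B-like cells, and Cd72 is lowest in B1-like cells.

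Activated B-like cells, named from a list of activation and pre-germinal centre markers, differed from follicular B-like cells of the same mouse in the same direction in 6 of 6 mice for each of the 9 genes. For 8 genes the CPM was lower in the activated cells. The largest ratios of means were 1.72-fold for Bank1 and 1.71-fold for Syk, and the smallest was 1.32-fold for Cd79a. Cd72 alone was higher in activated B-like cells, by 1.44-fold (log2 ratio 0.53 ± 0.30, SD, n = 6). The ranges of the states were apart for Cd79a, Cd79b, Cd22, Syk, Btk, Lyn and Bank1 and overlapped for Blnk and Cd72. Activated B-like cells held a median of 5033 UMIs against 3133 in follicular B-like cells, and per cell the mean number of UMIs was higher in the activated cells for all 9 genes, by between 1.12-fold for Bank1 and 2.78-fold for Cd72. On the mean over mice, a lower CPM here is a smaller share of the molecules of a cell, not a smaller number of them. Single mice departed from this. In LDHA-sufficient mouse 3 the UMIs per activated cell were lower for Bank1 (3.58 against 3.60) and Btk (0.61 against 0.77). The same held for Syk in LDHA-deficient mouse 2 (1.66 against 1.75) and Blnk in LDHA-deficient mouse 3 (1.42 against 1.49).

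In GC B-like cells, too, the share and the number of molecules pointed in different directions. Compared with non-GC B cells of the same mouse, which are the B-lineage cells outside the GC B-like and plasma cell-like states, the CPM was lower in GC B-like cells in 6 of 6 mice for Cd79a, Cd79b, Cd22, Lyn and Bank1, and in 5 of 6 for Cd72, Syk and Btk. Bank1 stood at 896 ± 45.1 in non-GC B cells (834, 898 and 966) and was 2.15-fold lower in GC B-like cells. Cd22 stood at 470 ± 15.7 (448, 469 and 489) and was 1.94-fold lower, Cd79a at 2841 ± 160 and was 1.61-fold lower, and Lyn at 473 ± 20.0 and was 1.53-fold lower. For these 4 genes and for Cd79b (1492 ± 93.2, 1.36-fold lower) the ranges did not overlap. Syk (421 ± 36.5 against 383 ± 66.3) and Blnk (334 ± 29.2 against 339 ± 75.7) overlapped.

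Counted per cell, the order turned over. GC B-like cells held a median of 10079.5 UMIs in all, and the mean number of UMIs per cell was higher than in non-GC B cells for each of the 9 genes: by 3.03-fold for Blnk (4.58 ± 0.94 against 1.51 ± 0.12), 2.71-fold for Syk (5.16 ± 0.84 against 1.91 ± 0.19), 1.84-fold for Cd79a (23.6 ± 3.81 against 12.9 ± 0.91), 1.56-fold for Cd22 and 1.38-fold for Bank1 (5.59 against 4.05). This held in 6 of 6 mice for 7 genes and in 5 of 6 for Cd22 and Bank1. At equal depth, a Bank1 UMI was found in 51.5% of 167 GC B-like cells (exact interval 43.7 to 59.3) and in 83.7% of 606 follicular B-like cells (80.5 to 86.5), while the shares for Blnk were 47.3% (39.5 to 55.2) and 51.8% (47.8 to 55.9). These intervals pool the cells of all mice and leave out the spread between mice.

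**Figure D2:**
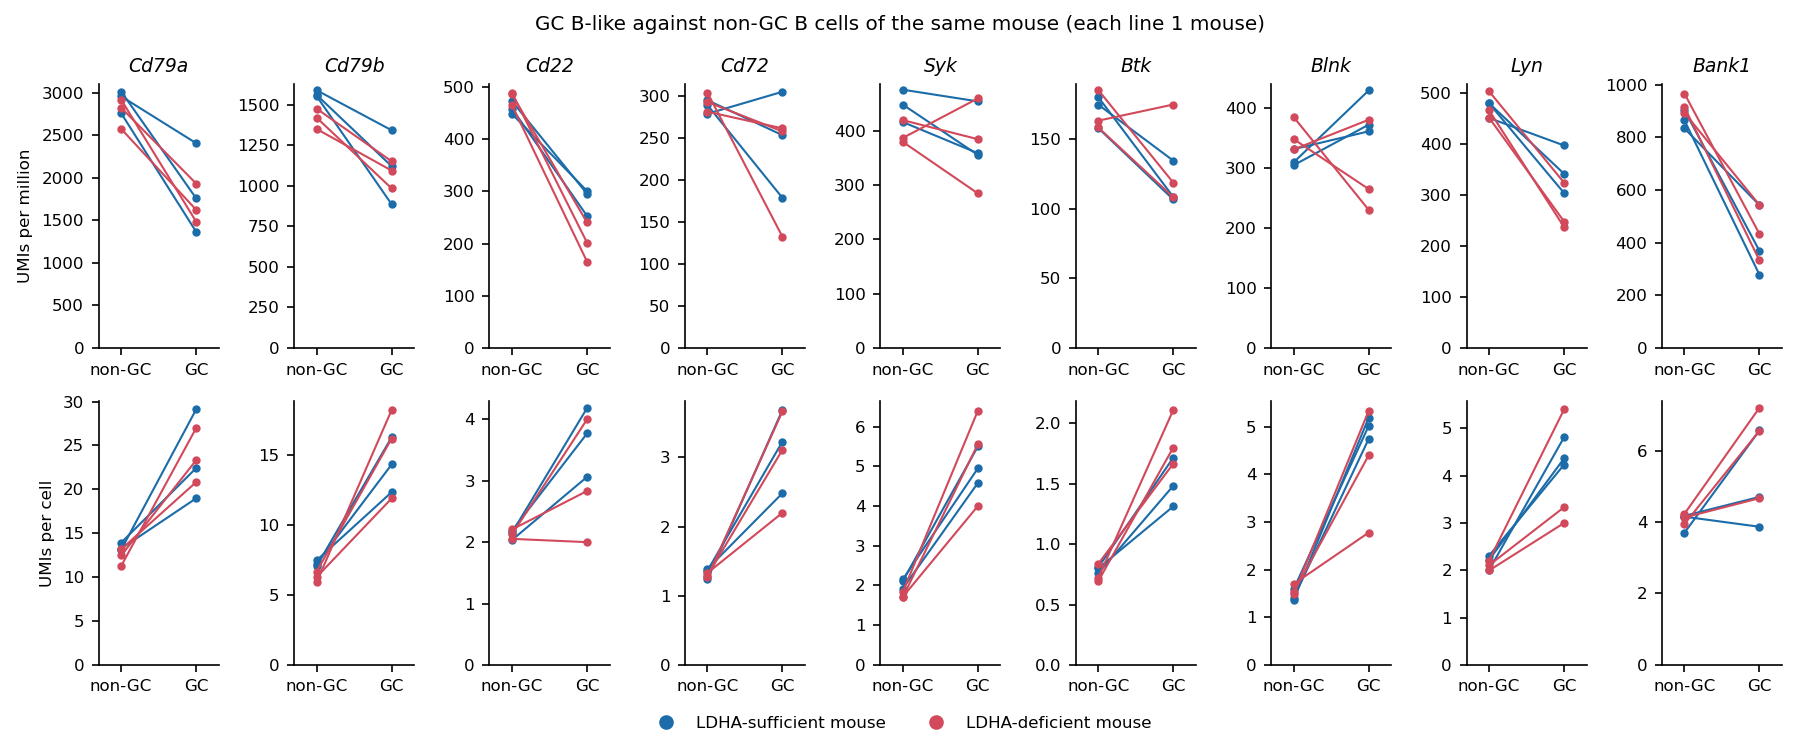
Each line joins the non-GC B cells and the GC B-like cells of 1 mouse, as CPM (upper row) and as UMIs per cell (lower row), on linear axes from 0. In CPM, Bank1 and Cd22 fall in every mouse and Blnk does not, and per cell the mean of all 9 genes is higher in GC B-like cells.

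Patterns of likeness were read over 30 sums of 1 mouse and 1 state with at least 20 cells, which share 1 lane and differ in depth, as Pearson correlations of log2 CPM among 3154 genes. They are descriptions and have no p. The signalling chains were most like each other within the set, with r = 0.87, and the genes most like Cd79a were Ly6e (0.89), Cd79b and Rnase6 (0.86), while those most like Cd79b after Cd79a were Ltb (0.85) and Acp5 (0.83). Syk and Lyn came next, with r = 0.78. The genes most like Lyn were Malt1 (0.84), Siglecg (0.84) and Nedd9 (0.83), and those most like Syk were Rasa3 (0.81), Ikzf3 (0.80) and Rb1cc1 (0.80). Cd22 was most like Ptprc (0.78), Icosl (0.77) and Erbin (0.76), Btk most like Rassf2 (0.76), Heca (0.76) and Vezf1 (0.75), and Blnk most like Slc38a9, Trp53inp1 and Dock8 (0.70, 0.70 and 0.69). Bank1 was most like the transcripts 9930111J21Rik2 (0.92), BE692007 (0.91) and Malat1 (0.90), of which Malat1 is a long RNA kept in the nucleus. Cd72 had r from -0.27 (Blnk), -0.21 (Btk) and -0.11 (Cd22) to 0.27 (Lyn) and 0.32 (Cd79a) with the other 8 genes, and its nearest genes were Ptprcap (0.73), Ifi30 (0.70) and Napsa (0.68).

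Class switching replaces the IgM and IgD heavy chain constant region by IgG, IgA or IgE, and cells were grouped by the heavy chain contigs read in the same droplets. A heavy chain was found in 1157 B-lineage cells, of which 89 were class-switched and 1068 carried IgM or IgD. Of the switched cells, 37 carried the same IgA chain, which was read in 193 barcodes of the heavy chain table and in cells of all 6 mice. Whether this chain came from the cells themselves was not tested, and these cells count as switched in the main comparison. The comparison is within mice, with the mouse as a block, and the switched sums were small, with 25, 27 and 15 cells for LDHA-sufficient mice and 9, 5 and 8 for LDHA-deficient mice. Of switched cells 30.3% were GC B-like, against 7.49% of IgM or IgD cells, 8.99% B1-like, against 3.65%, and 6.74% follicular B-like, against 33.5%, with no test of these shares. The unnamed cluster held 37.1% of switched cells against 15.4%, and 5.77% of switched cells with the shared IgA chain left out. The median UMIs per cell of the switched cells were 7938 and 7403 in LDHA-sufficient mice 1 and 2 and between 2516 and 3130 in the other 4 mice, against between 4030.5 and 4824 in IgM or IgD cells. The part of these differences in the results below was not tested, beyond the settings that leave cells out.

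Cd72 was lower in class-switched cells of every mouse. It stood at 95.9, 186 and 143 CPM in the switched cells of the LDHA-sufficient mice and at 107, 41.8 and 144 in those of the LDHA-deficient mice. In IgM or IgD cells it stood at 237, 288 and 310, and at 272, 271 and 303. The switched sums of the LDHA-deficient mice held 46675, 23905 and 20857 UMIs of all genes, so their Cd72 values rest on few UMIs. Of their switched cells, 6 of 9, 1 of 5 and 7 of 8 carried the shared IgA chain. The highest switched value lay under the lowest IgM or IgD value, and the difference passed the test (log2 fold change -1.25, SE 0.27, 95% interval -1.79 to -0.72, adjusted p = 0.000653 by edgeR). Cd72 and Cd79a were the 2 members called, both lower in switched cells, where 2.32% of the 7924 genes tested were called in either direction and 1.69% as lower.

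Cd79a stood at 1188, 1424 and 2023 in the switched cells of the LDHA-sufficient mice and at 1928, 3723 and 1726 in those of the LDHA-deficient mice. In IgM or IgD cells it stood at 2198, 2609 and 3011, and at 2792, 2944 and 2561. It was lower in 5 of 6 mice and the groups overlapped through LDHA-deficient mouse 2, whose switched sum is 5 cells (log2 fold change -0.70, SE 0.19, adjusted p = 0.0146 by edgeR). Bank1 was at 634 ± 288 in switched and 774 ± 103 in IgM or IgD cells (n = 6 mice), lower in 4 of 6 mice, and did not pass (log2 fold change -0.65, SE 0.22, adjusted p = 0.0905 by edgeR).

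The Cd79a call did not hold in every setting: it was lost without LDHA-sufficient mouse 1 (adjusted p = 0.166), LDHA-sufficient mouse 2 (0.235) or LDHA-deficient mouse 1 (0.0705), with GC B-like and plasma cell-like cells left out (0.208), and with DESeq2 (0.299). Bank1 passed without LDHA-deficient mouse 3 (log2 fold change -0.71, adjusted p = 0.035). The Cd72 difference passed in each of these settings, and with GC B-like and plasma cell-like cells left out it was -1.31 (adjusted p = 0.00395 by edgeR), while that of Bank1 was -0.20 (adjusted p = 0.842). With B1-like cells left out, an alternative chosen after seeing the data in which 3.36% of 8004 genes were called, Cd72 (-1.19, adjusted p = 0.00195), Cd79a (-0.81, adjusted p = 0.000251), Bank1 (-0.80, adjusted p = 0.0107) and Cd79b (-0.64, adjusted p = 0.0269) were called by edgeR, all lower. With the shared IgA chain left out, only the 3 LDHA-sufficient mice kept 5 switched cells (18, 18 and 8), 51.9% of the 52 switched cells left in all mice were GC B-like and 15.4% B1-like, and 2.74% of 7775 genes were called, 1.92% as lower. Cd72 (-1.32, adjusted p = 0.012) and Bank1 (-1.11, SE 0.26, adjusted p = 0.0181) were then called and Cd79a was not (-0.79, adjusted p = 0.0785). GC B-like and B1-like cells had the lowest mean Cd72 CPM of the ordered states (231 and 161), and the mean of the switched sums in the main comparison was 120. With GC B-like and plasma cell-like cells left out, the 37 switched cells with the shared IgA chain stayed in. No setting left out both the GC B-like cells and the shared IgA chain.

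The other 6 genes did not pass the test, with log2 fold changes from -0.51 for Lyn (SE 0.24, adjusted p = 0.342) and -0.47 for Cd79b (SE 0.20, adjusted p = 0.277) to -0.20 for Blnk (95% interval -0.67 to 0.27). All 9 estimates were negative.

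**Figure D3:**
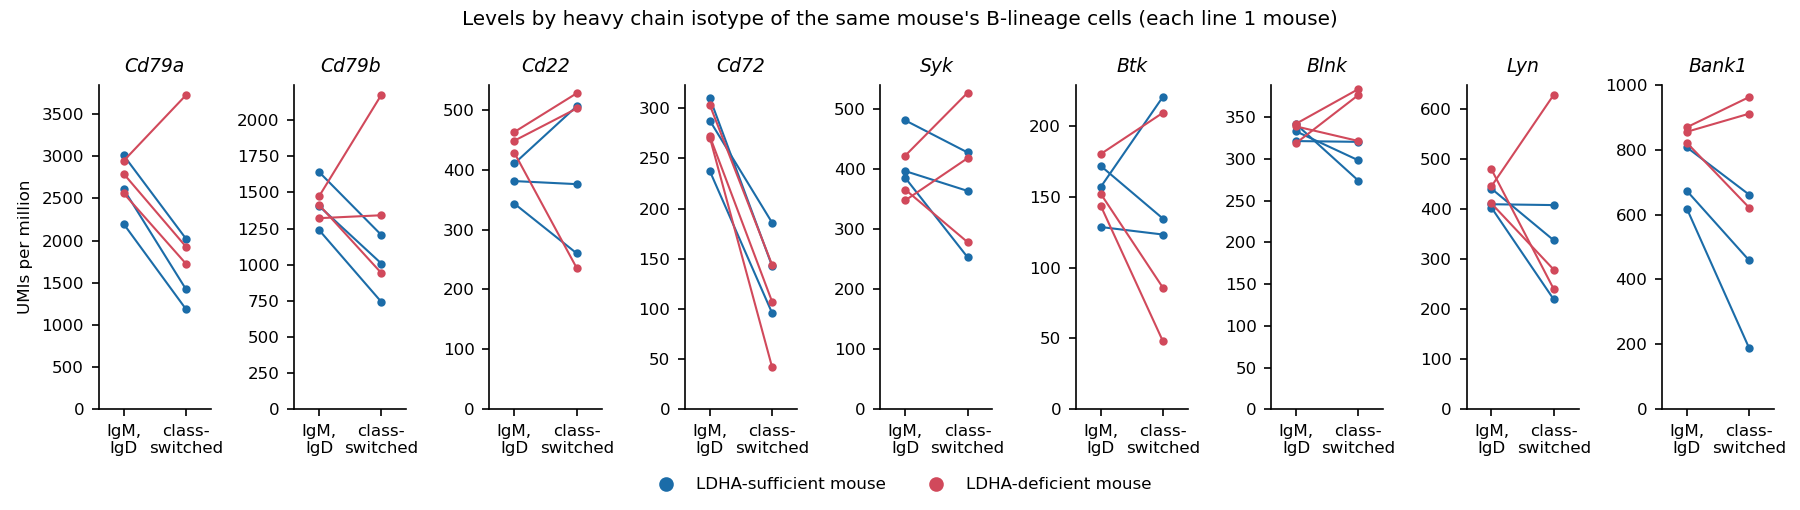
CPM (vertical axes, linear, from 0) in the IgM or IgD cells and the class-switched cells of each mouse, 1 line per mouse. The 6 lines of Cd72 fall, with switched values of at most 186 and IgM or IgD values of at least 237, while those of Blnk and Cd22 run in both directions.

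The genotypes were compared to ask whether loss of LDHA changes the receptor machinery. Over all B-lineage cells, none of the 9 genes passed the adjusted threshold of 0.05, where 1.61% of 9158 genes did. At an unadjusted p under 0.05 there were 2, Bank1 and Cd22, against 17% of all genes, and DESeq2 called none. Bank1 stood at 586, 658 and 784 CPM in LDHA-sufficient mice and at 842, 885 and 919 in LDHA-deficient mice. The genotypes did not overlap (log2 fold change 0.41, SE 0.12, 95% interval 0.17 to 0.66, adjusted p = 0.0873 by edgeR). Cd22 stood at 366, 390 and 425 in LDHA-sufficient mice and at 428, 474 and 464 in LDHA-deficient mice, also without overlap (log2 fold change 0.24, SE 0.11, adjusted p = 0.266). These were the 2 of 9 genes without overlap, against 19.6% of all genes tested. The median log2 fold change of the 9 genes was 0.15, with 8 above 0, against a median of 0.01 over all genes tested.

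The share of GC B-like cells also differed between the genotypes, and its part in these values was not tested. The 11 GC markers summed to between 339 and 1038 CPM in LDHA-sufficient mice and between 159 and 264 in LDHA-deficient mice over all B-lineage cells. LDHA-sufficient mouse 2 had a larger GC B-like share of cells than mouse 1 (22.8% against 19.0%) and higher Bank1 (658 against 586) and Cd22 (390 against 366). CPM of summed cells weight each cell by its UMIs, so shares of cells do not give the make-up of these sums. By UMIs, non-GC B cells gave 1190717 of 2159794 in mouse 1 and 1150572 of 2116520 in mouse 2. Mouse 1 also held the 7 plasma cell-like cells, with Bank1 at 37.2 and Cd22 at 44.7 CPM. LDHA-sufficient mouse 3, with the fewest GC B-like cells of its genotype, had the highest value of its genotype for every member but Blnk. Without that mouse, 1454 of 9577 genes were called (15.2%), 3 members among them: Bank1 (0.55, adjusted p = 2.86e-05), Cd22 (0.32, adjusted p = 0.0187) and Cd79a (0.30, adjusted p = 0.0156). With GC B-like and plasma cell-like cells left out, the Bank1 difference was 0.08 (SE 0.07, 95% interval -0.07 to 0.22) and that of Cd22 0.05 (SE 0.08, -0.11 to 0.20).

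Among non-GC B cells, of which each mouse gave from 228 to 354, none of the 9 genes was called, where 0.0701% of 8554 genes were, and DESeq2 called none. Their median log2 fold change was -0.01, with 4 above 0, against -0.0017 over all genes tested. The 95% intervals of all 9 lay between -0.36 and 0.33. At an unadjusted p under 0.05 there were 2, Cd79b and Syk, against 5.18% of all genes. Cd79b stood at 1554, 1561 and 1590 in LDHA-sufficient mice and at 1421, 1476 and 1351 in LDHA-deficient mice. The LDHA-deficient mice were all below (log2 fold change -0.16, SE 0.07, adjusted p = 0.891), the only member without overlap, against 10.5% of all genes. Syk stood at 448, 416 and 476 and at 387, 380 and 420, overlapping by 1 mouse (log2 fold change -0.19, SE 0.08, adjusted p = 0.921). Bank1 stood at 864, 903 and 834 and at 893, 914 and 966, overlapping.

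**Figure D4:**
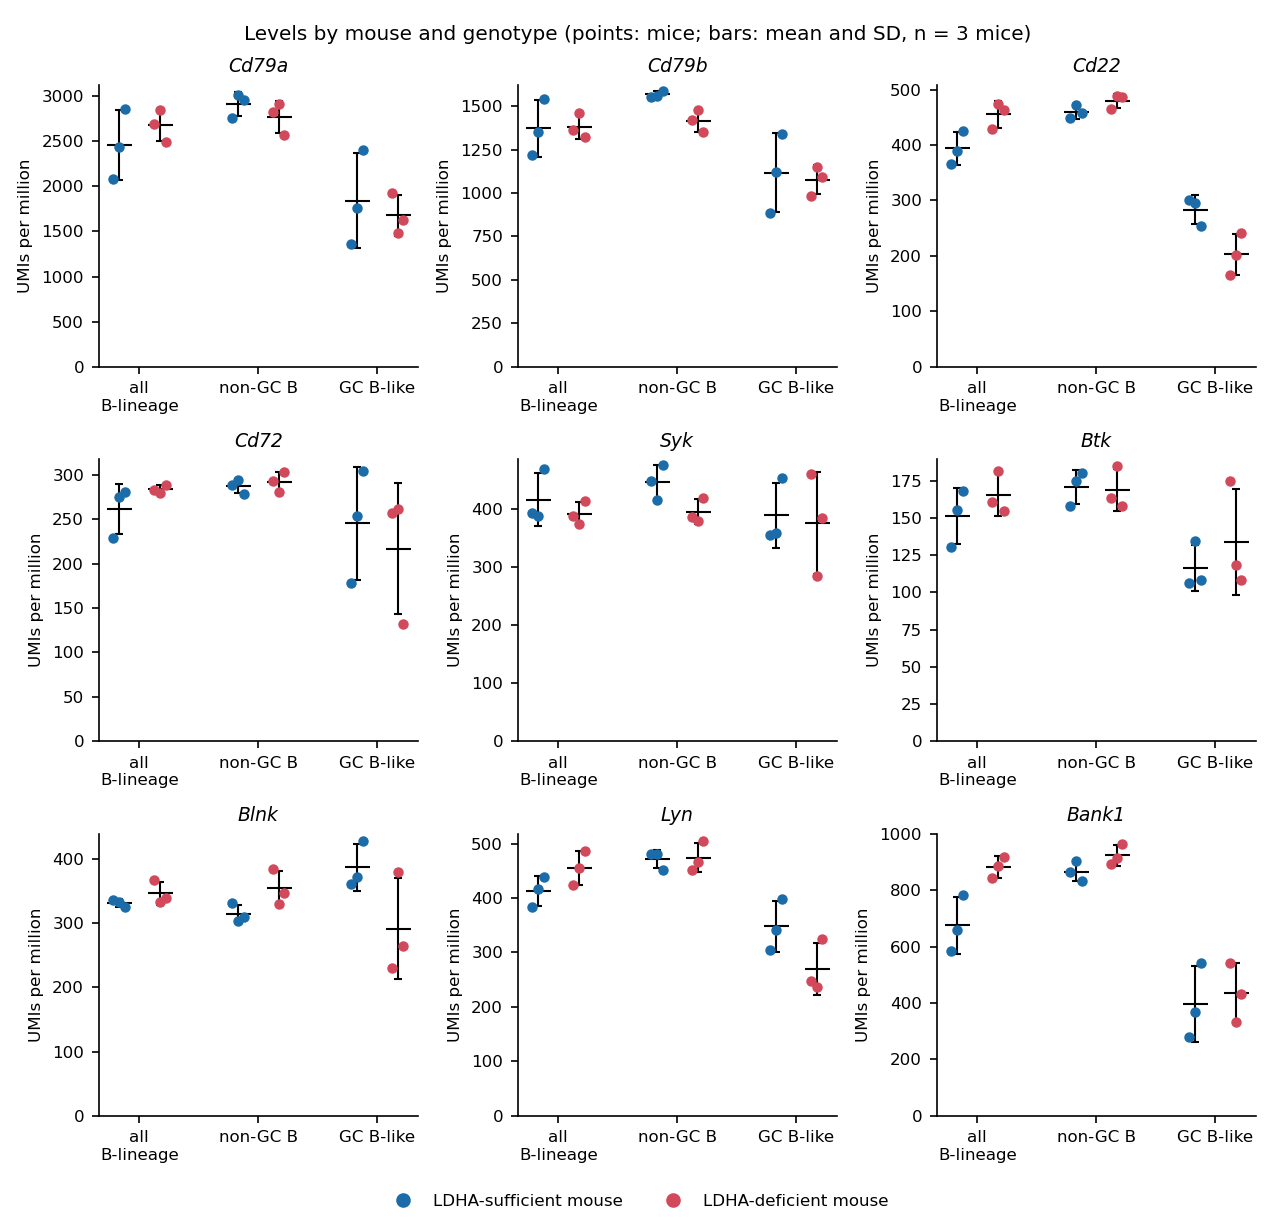
CPM (vertical axes, linear, from 0) of each gene by mouse (points) with the mean and SD (bars, n = 3 mice) in all B-lineage, non-GC B and GC B-like cells. The genotypes are apart for Bank1 and Cd22 over all B-lineage cells, where the LDHA-deficient mice are higher, and Bank1 overlaps in both other classes.

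Within single states the same 9 genes showed no call, and all 9 passed the filter on low counts in each. In follicular B-like cells, 2 of 5110 genes were called (0.0391%). Cd79b stood at 1697, 1766 and 1583 in LDHA-sufficient and at 1433, 1509 and 1475 in LDHA-deficient mice, without overlap, but did not pass (log2 fold change -0.22, SE 0.10, adjusted p = 0.876), and it was the 1 member at an unadjusted p under 0.05, against 5.36% of all genes. Cd79a was also lower in all 3 LDHA-deficient mice (2971, 3208 and 2910 against 2819, 2884 and 2526, adjusted p = 0.954), and Lyn was higher in all 3 (513, 509 and 477 against 546, 524 and 543, adjusted p = 0.971). These 3 of 9 genes without overlap compare with 10.6% of all genes. In marginal zone B-like cells 0% of 3176 genes were called, and the members' log2 fold changes ran from -0.18 for Btk to 0.26 for Blnk. In activated B-like cells 0.0531% of 3764 genes were called, and they ran from -0.24 for Syk to 0.10 for Cd72. Neither state had a member at an unadjusted p under 0.05, against 5.92% and 4.86% of all genes, or a member without overlap, against 11.9% and 8.98%, and DESeq2 called no member in any of the 3 states.

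In GC B-like cells the LDHA-deficient sums rest on 9, 6 and 5 cells, and 0% of 2803 genes were called, with no member called by edgeR or DESeq2 and none at an unadjusted p under 0.05, against 7.67% of all genes. These sums also differed in markers. The 7 B lineage markers summed to 12453 to 16757 CPM in LDHA-sufficient and 7763 to 11739 CPM in LDHA-deficient mice. The 11 GC markers summed to 1317 to 2179 and 432 to 1887 CPM, overlapping. The part of this in the members' values was not tested. Cd22 stood at 301, 295 and 253 in LDHA-sufficient mice and at 166, 202 and 240 in LDHA-deficient mice, without overlap (log2 fold change -0.42, SE 0.24, 95% interval -0.92 to 0.09, adjusted p = 0.689). It was the 1 member without overlap, against 13.9% of all genes. Blnk stood at 361, 372 and 429 and at 230, 380 and 265, overlapping through LDHA-deficient mouse 2 (log2 fold change -0.32, SE 0.23, adjusted p = 0.766). For Cd79b and Syk the fitted value (0.04 and 0.07) and the difference of the plain means had opposite signs.

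Blnk and Cd22 also had the largest differences between the genotype effects in GC B-like and in non-GC B cells. In all 3 LDHA-sufficient mice the Blnk CPM was higher in GC B-like cells (361, 372 and 429) than in the non-GC B cells (330.9, 304.2 and 308.9). In LDHA-deficient mice it was lower in 2 of 3 (230, 380 and 265 against 384, 330 and 348). The difference of the effects was -0.59 for Blnk (SE 0.25, 95% interval -1.09 to -0.09, adjusted p = 0.588 by edgeR) and -0.57 for Cd22 (SE 0.26, adjusted p = 0.656 by edgeR). Neither passed, no member was called by DESeq2, and 0.178% of 9526 genes were called by edgeR. The 2 members at an unadjusted p under 0.05 compare with 6.96% of all genes.

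**Figure D5:**
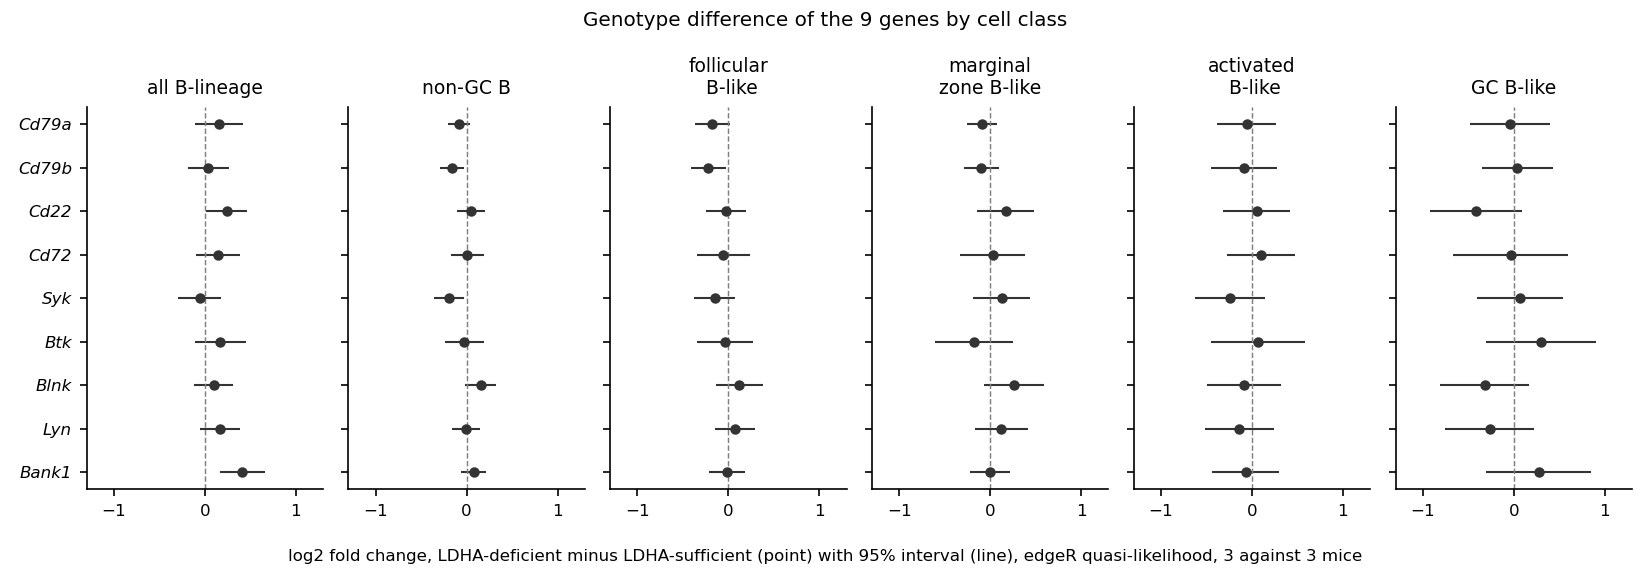
Log2 fold change of LDHA-deficient against LDHA-sufficient mice (points) with 95% intervals (lines) for the 9 genes in 6 cell classes, from edgeR on 3 against 3 mice. The interval of Bank1 lies above 0 over all B-lineage cells (0.17 to 0.66) and spans 0 in the other 5 classes, and intervals are widest in GC B-like cells.

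Of 62 other genes of the pathway, listed by role, 60 were tested over all B-lineage cells, and 1 was called. This was Cr2, which encodes complement receptor 2, a coreceptor for antigen coated with complement, and is also in the marker list of marginal zone B cells. It stood at 493, 496 and 533 in LDHA-sufficient mice and at 791, 751 and 886 in LDHA-deficient mice, without overlap (log2 fold change 0.70, 95% interval 0.49 to 0.91, adjusted p = 0.00296 by edgeR). Among non-GC B cells Cr2 overlapped, at 822, 732 and 574 against 846, 782 and 945 (log2 fold change 0.26, adjusted p = 0.921). Of the other receptor chain and coreceptor genes, Ighd was at 0.64 (adjusted p = 0.193) and Ptprc, which encodes the phosphatase CD45, at 0.16 (adjusted p = 0.403) over all B-lineage cells.

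Of the 18 proximal kinases and adaptors, 18 were tested in all B-lineage and in non-GC B cells, 15 in follicular, 14 in marginal zone, 12 in activated and 12 in GC B-like cells, and none of those tested was called. The 3 with the smallest p over all B-lineage cells were Vav3, a guanine nucleotide exchange factor (log2 fold change 0.75, adjusted p = 0.175), and the SRC family kinases Blk (0.40, adjusted p = 0.188) and Fgr (0.52, adjusted p = 0.268). In non-GC B cells they were at 0.30, 0.16 and 0.14. Of the 16 downstream genes none was called, with Ikbkb, the NF-kB kinase subunit, at 0.40 (adjusted p = 0.140), the kinase Akt1 at -0.50 (adjusted p = 0.155) and the calcium channel Itpr2 at 0.32 (adjusted p = 0.179). In non-GC B cells these were at 0.10, 0.04 and 0.17. Of the 22 inhibitors, 20 were tested and none was called. Pecam1 was at 0.53 (adjusted p = 0.0767), Fcrl1 at 0.35 (adjusted p = 0.167) and Siglecg at 0.32 (adjusted p = 0.192), and at 0.07, 0.04 and 0.14 in non-GC B cells. Over all B-lineage cells 46 of the 60 genes tested were above 0 (median 0.15), and in non-GC B cells 35 of 60 (median 0.03), where none was called.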

How the data were processed

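The authors deposited UMI counts per gene and barcode for 2836 barcodes and 32285 genes, and hashtag counts for 2831 of them, per the file headers. The submitters' processing notes list Cell Ranger 6.0.0, Seurat 4.2.1 and mm10, while the matrix header gives Cell Ranger 6.0.2. Deposited heavy chain contigs cover 2014 barcodes, 1730 of them shared with the gene matrix.

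Hashtags were called with HTODemux (Seurat 5.3.0, quantile 0.99): 1856 barcodes carried 1 hashtag, 820 carried several and 155 none. Cells with 500 genes, 1000 UMIs and under 10% mitochondrial UMIs were kept. Doublets of the same mouse could not be removed, and no doublet caller was run. Setting aside 64 cells with markers of other cell types, and Leiden resolution 1.0 (scanpy 1.11.5), were decided after seeing the data. States were named from 3 or more markers. Counts were summed per mouse and state (20 cells or more, and 5 for GC B-like and switched cells), normalised by TMM, filtered with filterByExpr and tested with edgeR 4.0.16 (quasi-likelihood, robust, Benjamini-Hochberg over all genes, threshold 0.05). The test by genotype was run on simulated sums of all B-lineage and of non-GC B cells, with no shift in cell make-up between mice. The GC B-like sums and the designs with the mouse as a block were not simulated. Printed CPM are not TMM-scaled. Alternatives included DESeq2 1.42.0. P-values of the genotype comparisons within a class measure the spread between mice. Those of the isotype comparison and the difference of effects, with the mouse as a block, measure how differences within a mouse vary between mice. Genes were named as the 9 members, the 3 genes most like each, the 3 of smallest p per pathway list and any called pathway gene. The members and lists were chosen with earlier results of these data known.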

Additional observations from a re-analysis of the deposited data

How the results depend on the processing

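Over all B-lineage cells, 0 members were called by genotype in the design as set. Without the filter on low counts 1 was called (Bank1, log2 fold change 0.39, adjusted p = 0.00859 by edgeR, where 675 genes were called), and leaving out each mouse in turn gave between 0 and 3 members and between 19 and 1454 genes, the highest of both without LDHA-sufficient replicate 3. The count of 147 genes became 189 with DESeq2, 224 with receptor segment genes left out, 244 with hashtags called by a ratio, 55 with equal cells per mouse and 63 with the 64 other cells kept, an alternative chosen after seeing the data. In non-GC B, follicular, marginal zone, activated and GC B-like cells and in the difference of effects, 0 members were called under every alternative run, while genes called moved at most to 33, 13, 14, 13, 55 and 72. In the comparison of class-switched with IgM or IgD cells, 1 member was called with DESeq2, 1 with GC B-like and plasma cell-like cells left out, 4 with B1-like cells left out (chosen after seeing the data), and between 1 and 3 when each mouse was left out; genes called ran from 41 to 269, against 184. Cd72 passed in each of these settings (adjusted p from 0.000653 to 0.0221), none of which left out both the GC B-like cells and the shared IgA chain. The number of members whose CPM in all mice or all but 1 was lower in the GC B-like state, against non-GC B cells, was 8, and 8 under all 5 alternatives run. Of 54 effects of genotype (9 genes in 6 classes), 22 kept their sign in every alternative, and no called value reversed. The causes of these changes were not tested. Resolution 0.4 gave no activated B-like cells, so that alternative was not run there. No B1-like cells were named at resolution 0.4, 0.8 or 1.2, and no transitional B-like cells at 0.4 or 0.8. With hashtags called by a ratio, neither state was named. For levels by state, the alternatives given here cover only GC B-like against non-GC B cells, not the order of the other states.

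No paired analysis was possible because the hashtag numbers pair no mice across genotypes. Precision is limited by 3 mice a genotype and, in GC B-like cells of LDHA-deficient mice, by 9, 6 and 5 cells, where the intervals of the 9 genes reached 0.92 below and 0.91 above 0. Switched sums of LDHA-deficient mice held between 5 and 9 cells. State names were rebuilt from markers, and other settings would draw their borders elsewhere.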
